A study of Mus musculus with 12 samples.

Results

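The proteasome is the multi-subunit protease that degrades most ubiquitin-tagged proteins, and its transcripts were followed here in hippocampal CA1 tissue of mice after heart surgery. The set holds every protein-coding gene whose whole symbol is Psm, a letter from a to g and a number, with a mean of at least 10 counts over the libraries. It has 46 members among the 48709 gene IDs of the count files, and 14493 protein-coding genes reached the same minimum. By role, 7 members form the alpha rings of the core, 7 the beta rings, 3 are the immunoproteasome subunits (Psmb8, Psmb9 and Psmb10), 6 are ATPases of the cap, 14 other cap genes, 5 regulators and 4 assembly chaperones. Just inside the minimum stood Psmb8 with a mean of 36.1 counts and Psmb9 with 39.6. Just outside stood Psma8, a testis form of an alpha subunit, with 8.0 counts, and Psmb11, a thymus form of a beta subunit, with 2.42. Psmc3ip and Psme2b, whose symbols go on past the number, were not counted as members.

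The core is a barrel of alpha and beta rings that encloses the proteolytic sites, and the cap recognises ubiquitin chains, unfolds the substrate with its ring of ATPases and feeds it into the barrel. Interferon can replace the catalytic beta subunits by the immunoproteasome forms, which are abundant in immune cells, and the transcription factor encoded by Nfe2l1 raises subunit genes together when proteasome activity is lost. In hippocampal neurons, protein degradation by the proteasome takes part in synaptic plasticity and memory.

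Polyadenylated RNA of dissected CA1 tissue was sequenced in 12 libraries, 6 from mice whose coronary artery was tied to give a myocardial infarction (MI) and 6 from mice that had the operation without the tie (Sham). No other allele or agent is named for either group, and strain, age, sex and the interval after surgery are not given in the labels. The series title links heart failure with memory and gene expression, and the comparison asked here is which proteasome transcripts differ between MI and Sham. Whether the libraries are separate animals is not stated in the labels. The p-values therefore reflect the variation among these 12 libraries, which may be technical in part.

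Library totals ran from 20764133 to 35643127 counts. All 6 markers of CA1 pyramidal neurons were detected in each group, and their summed level ran from 1092 to 1369 CPM (counts scaled to library size) in MI and from 701.3 to 1560 in Sham. Dentate granule cell markers, from a neighbouring field, summed to 745 CPM in Sham 6 and to between 66.8 and 304.5 in the other 11 libraries. The 7 oligodendrocyte and myelin markers summed to between 4711 and 5973 CPM in MI and between 2531 and 5197 in Sham, and all 7 had a positive log2 fold change. In bulk tissue, fewer cells of a type and less RNA per cell cannot be told apart. Each group held 3 libraries in which Y-linked genes had counts (Y-count libraries) and 3 in which Xist, the RNA of the inactive X chromosome, had them instead (Xist libraries). Neither group can therefore come from a single mouse.

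No proteasome transcript passed the test between MI and Sham, and nearly all differed by very little. Of the 46 members, 0 were called by edgeR's quasi-likelihood test at a Benjamini-Hochberg adjusted p under 0.05, where 0.0% of 16829 tested genes were called in all, and the smallest adjusted p of a member was 0.597. An unadjusted p under 0.05 was reached by 2 members, Psmg4 and Psmb5, beside 7.55% of all genes. Both were higher in MI (3.95% of all genes) and 0 were lower (3.59%). DESeq2 called 0 members (0.0951% of all genes) and limma-voom 0 (0.0% of all genes), with 2 members each at an unadjusted p under 0.05 against 7.75% and 11.3% of all genes.

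The sizes were small and the intervals narrow. Log2 fold changes of the members (MI minus Sham) ran from -0.07 for Psmg1 to 0.22 for Psmg4, and 42 of 46 lay within 0.1 of 0. The 4 beyond that were Psmg4, Psmb8, Psmb5 and Psmd9, all positive. For 36 members the whole 95% interval lay between -0.2 and 0.2, and for 43 it lay between -0.3 and 0.3. The median standard error (SE) was 0.055 for the members and 0.094 for all tested genes.

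**Figure D1:**
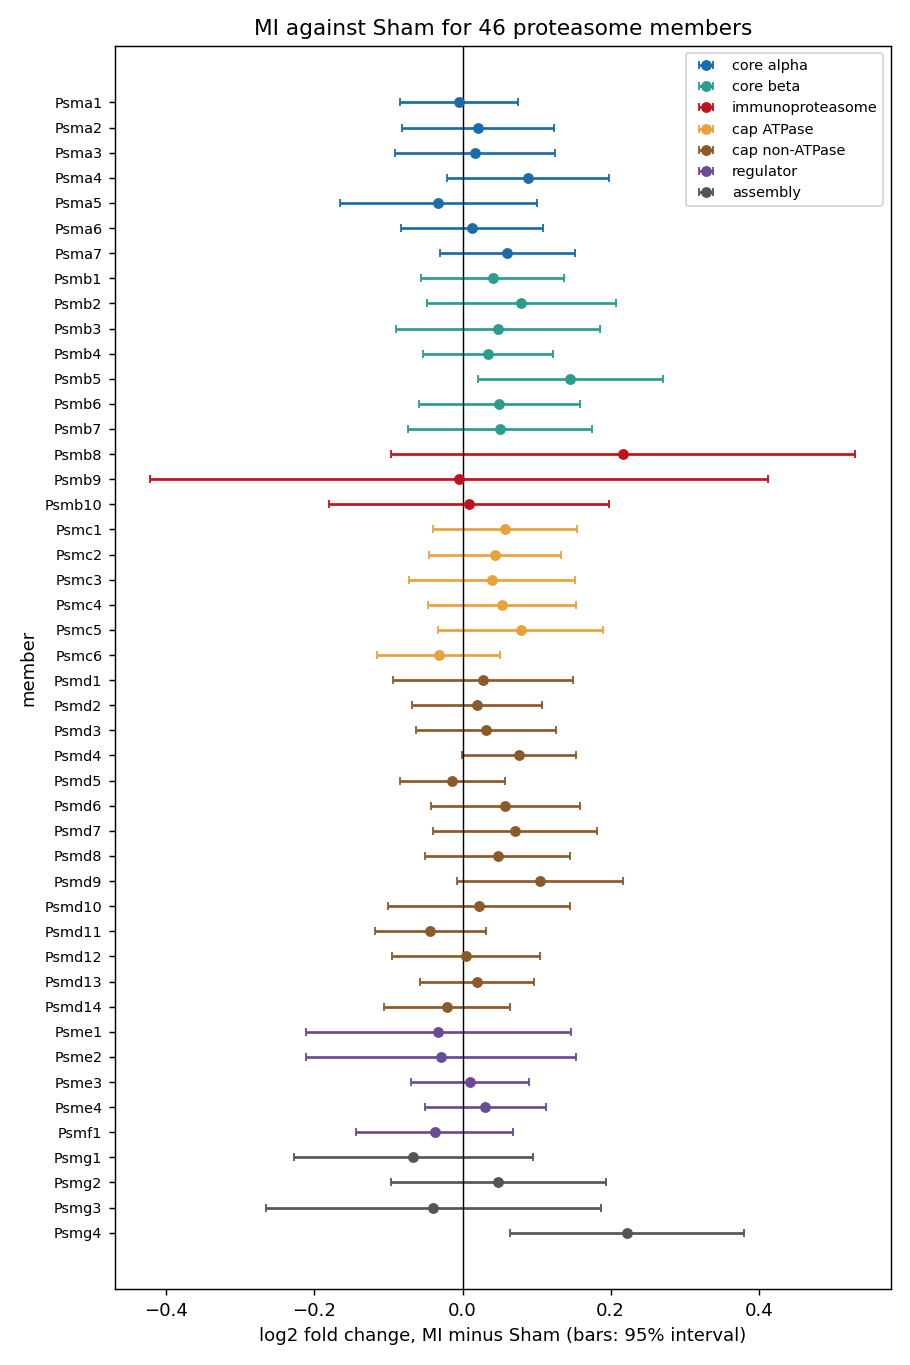
Log2 fold change of each of the 46 members, MI minus Sham, in edgeR (points), with bars of the approximate 95% interval, coloured by role. Most points lie a little right of 0, 42 lie within 0.1 of it, and the widest bars belong to Psmb8 and Psmb9, the members with the fewest counts.

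More members stood above 0 than below it. The log2 fold change was positive for 34 of 46 members (73.9%), against 47.6% of all tested genes, and its median was 0.031 against -0.0071. Single libraries moved this count: without Sham 6 the median was 0.015 with 27 positive, and without MI 3 it was 0.013 with 31 positive. Without Sham 1 and Sham 6 it was 0.0090 with 26 positive. Another tool moved it too: limma-voom, which also weights libraries, gave 0.018 with 25 positive. Of all 16829 tested genes, 8067 were positive without Sham 6 and 7820 without MI 3. Without Sham 1 and Sham 6 it was 8302, and with limma-voom 8483. The members share regulators and libraries, so they are not independent counts, and no member's MI and Sham values were free of overlap, beside 0.41% of all genes.

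By role, all medians lay close to 0, and their order changed with single libraries. The median log2 fold change was 0.050 for the beta subunits (7 of 7 positive) and 0.048 for the cap ATPases (5 of 6 positive). It was 0.025 for the other cap genes (11 of 14 positive), 0.017 for the alpha subunits (5 of 7), 0.0088 for the immunoproteasome subunits (2 of 3), 0.0045 for the assembly chaperones (2 of 4) and -0.029 for the regulators (2 of 5). Without Sham 6 the cap ATPases had 0.020 and the immunoproteasome subunits 0.065, the highest of the roles. The latter were also highest without MI 3 (0.065) and with limma-voom (0.17). In each of these fits that median was the value of the scarce Psmb9 (SE 0.22, 0.22 and 0.23). Psmb8 lay above it, at 0.14, 0.20 and 0.20, and Psmb10 lay below 0, at -0.05, -0.01 and -0.06. In the Xist libraries 4 of 7 beta subunits were positive. Some signs did not hold in other fits either: without Sham 6 the alpha subunits had a median of -0.01 (2 of 7 positive), while without Sham 1 and Sham 6 the other cap genes had -0.0029 (7 of 14 positive).

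The promoters of the members whose differences are described next, and that of Psmc5, the member with the highest level, are shown for their letters. They come from the RefSeq promoter table of GRCm38.p6, and each stretch holds no annotated exon of its gene. Psmg4 lies at chr13:34162844-34162963 (plus strand) and Psmb5 at chr14:54618023-54618142 (minus strand). Psmd4 lies at chr3:95042615-95042734 (minus strand) and Psmd9 at chr5:123228070-123228189 (plus strand), inside the span that GENCODE gives to Psmd9. Psmc5 lies at chr11:106256080-106256153 (plus strand). Each is written from 5′ to 3′ on the strand of the gene, and capitals mark matches to the motifs named after them.
Psmg4: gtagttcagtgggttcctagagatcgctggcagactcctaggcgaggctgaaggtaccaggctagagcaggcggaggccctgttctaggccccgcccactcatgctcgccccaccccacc
Psmb5: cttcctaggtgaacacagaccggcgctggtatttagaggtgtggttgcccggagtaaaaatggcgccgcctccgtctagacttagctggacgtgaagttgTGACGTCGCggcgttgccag
Psmd4: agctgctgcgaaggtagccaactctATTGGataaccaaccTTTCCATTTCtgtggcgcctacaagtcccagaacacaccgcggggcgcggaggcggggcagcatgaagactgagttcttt
Psmd9: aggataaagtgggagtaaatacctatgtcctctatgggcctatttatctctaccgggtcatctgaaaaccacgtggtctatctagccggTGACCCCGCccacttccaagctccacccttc
Psmc5: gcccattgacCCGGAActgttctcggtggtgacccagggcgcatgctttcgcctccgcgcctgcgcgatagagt

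Psmb5 and Psmd9 hold the core of the antioxidant response element, TGACNNNGC, a sequence bound by the factors of Nfe2l1 and Nfe2l2. Psmd4 holds the CCAAT box on the opposite strand (ATTGG) and an interferon-stimulated response element, also on the opposite strand. Psmc5 holds CCGGAA, the core recognised by ETS factors, and the Psmg4 stretch holds none of the 4 motifs. All motifs were searched on both strands of the table's whole entries, from 250 bases before to 50 bases after each start, which are longer than the stretches printed, and overlapping matches were allowed. Of the members, 39 were in the table.

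CCGGAA was the most frequent motif among the members. It stood in 20 of the 39 (51.3%), against 16.7% of all 27025 genes in the table and 14.9% of its 32851 promoters. Psma2, Psmb4, Psmc5, Psmd2 and Psmg1 were among the 20. TGACNNNGC stood in 6 (15.4%, against 14.0% of genes and 12.4% of promoters), the interferon element in 5 (12.8%, against 3.99% and 3.44%) and CCAAT in 13 (33.3%, against 41.1% and 37.4%). The 5 with the interferon element were Psmb3, Psmd4, Psmd9, Psme1 and Psmg4. The shares of all genes include genes not expressed here, while members had to reach a count minimum, and shares among expressed genes alone were not computed. A match describes the letters of the window and shows no binding.

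Among the 7 alpha subunits, whose rings close the ends of the core, Psma4 had the largest difference. Its level was 41.9, 45.0 and 49.9 CPM (lowest, median and highest) in MI and 37.0, 43.4 and 44.3 in Sham. MI 3 was the highest library and Sham 6 stood below all others, while the rest of both groups overlapped. The log2 fold change of Psma4 was 0.09 (SE 0.06, edgeR adjusted p = 0.747). Psma7 had 0.06 (SE 0.05), and its highest libraries were MI 4 and MI 3 with 69.6 and 68.7 CPM. Psma6, the alpha subunit with the highest level per length, had 0.01 (SE 0.05), Psma3 had 0.02 (SE 0.05) and Psma5 had -0.03 (SE 0.07).

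Of the beta subunits, Psmb5, which carries the chymotrypsin-like site of the constitutive core, had the smallest p. Psmb5 (ENSMUSG00000022193, chr14:54614119-54618022, mm10) had 21.2, 22.5 and 25.1 CPM in MI and 18.6, 20.6 and 23.4 in Sham. MI 4 and MI 3 were highest, Sham 1 and Sham 6 lowest, and Sham 5 and Sham 2 lay among the MI libraries. Its log2 fold change was 0.15 (SE 0.06, unadjusted p = 0.0382, edgeR adjusted p = 0.635), and 6 of 6 MI libraries lay above the Sham median. Psmd10, with 0.02 (SE 0.06), reached the same 6 of 6, so that count does not mark a difference. Of the 50-base windows of the Psmb5 transcript, 57.1% also occur in other annotated genes, among them a Psmb5 pseudogene, so the count of Psmb5 is uncertain.

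The other active-site subunits of the constitutive core differed less. Psmb6, which carries the caspase-like site, had 54.2, 59.5 and 64.7 CPM in MI and 53.3, 57.5 and 60.9 in Sham, with a log2 fold change of 0.05 (SE 0.06). Psmb7, which carries the trypsin-like site and is named here as the partner of Psmb10, had 0.05 (SE 0.06). The groups overlapped in both genes. Among the structural beta subunits, Psmb2 had 0.08 (SE 0.06), Psmb4 0.03 (SE 0.04) and Psmb3 0.05 (SE 0.07).

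Psmb7, Psmb8, Psmb9 and Psmd9, among others, share exon bases with genes on the opposite strand, which the unstranded library kit does not separate. Psmb7 shares 405 bases with Nek6 and Psmb9 shares 212 with Tap1, the peptide transporter of antigen presentation. The log2 fold changes of Nek6 and Tap1 were -0.11 (SE 0.12) and 0.15 (SE 0.11). Psmd9 shares 1849 bases, 25.5% of its exons, with Gm26745, and Psmb8 shares 498, or 14.7%, with Gm20496. Gm26745 and Gm20496 had mean counts of 0.2 and 0.3.

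**Figure D2:**
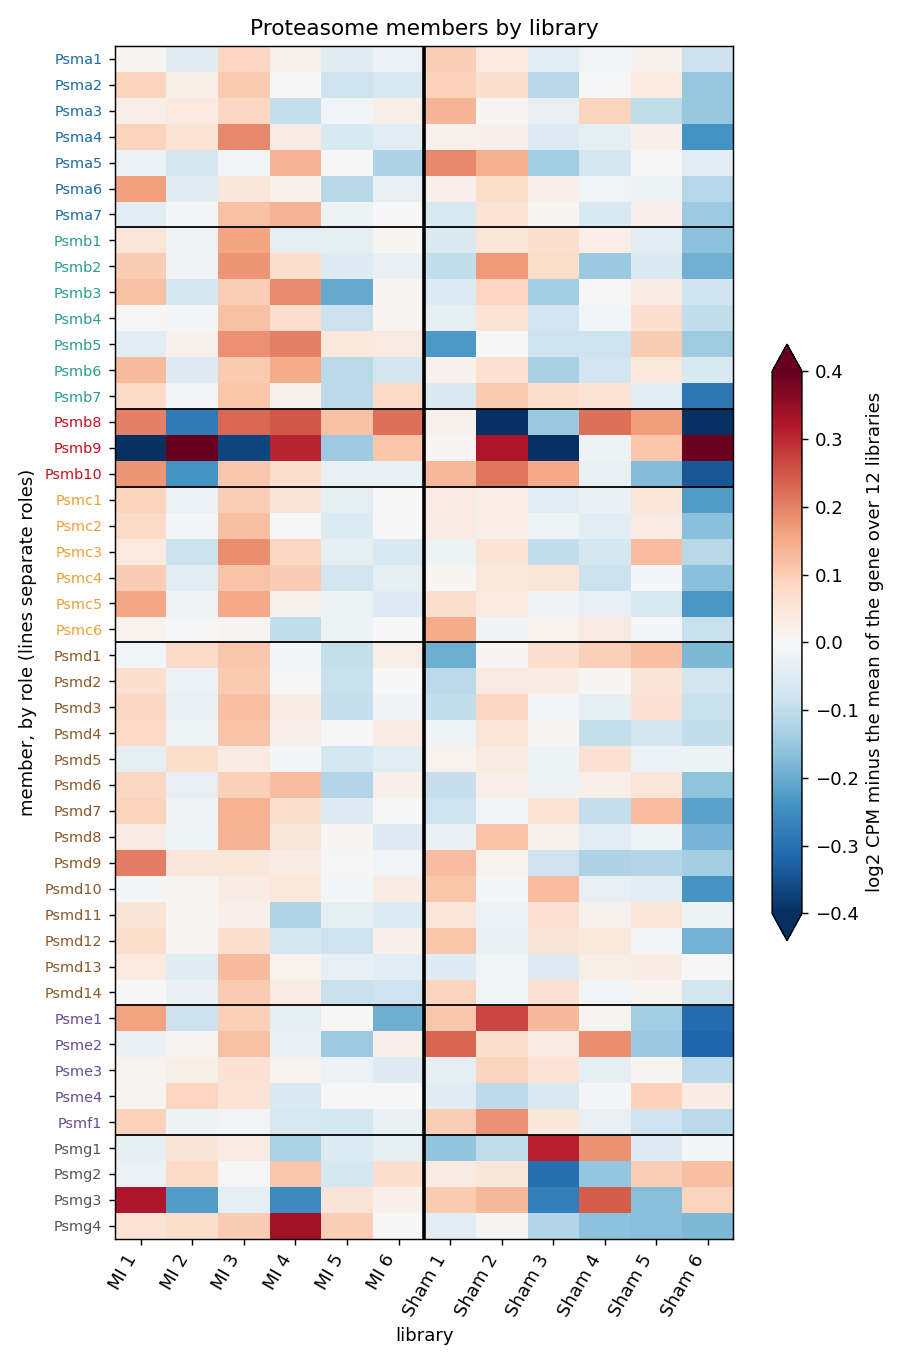
Log2 CPM of each member in each library minus its mean over the 12 libraries, by role, with MI left of the thick line and Sham right of it; colours stop at 0.4 on either side. Sham 6 is blue for most members, MI 3 is red for most, and Psmb8 and Psmb9 vary from library to library within both groups.

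Immunoproteasome transcripts were scarce apart from Psmb10, and none passed the test. Psmb8, the immune counterpart of Psmb5, had 1.12, 1.58 and 1.62 CPM in MI and 0.94, 1.31 and 1.59 in Sham, with Sham 6, Sham 2 and MI 2 low and the other libraries mixed. Its log2 fold change was 0.22 (SE 0.16, edgeR adjusted p = 0.791), with 5 of 6 MI libraries above the Sham median. Psma3, with 0.02 (SE 0.05), reached the same 5 of 6. The log2 fold change of Psmb8 was 0.41 (SE 0.21) in the Y-count libraries and 0.03 (SE 0.26) in the Xist libraries.

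Psmb9, the counterpart of Psmb6, had 1.06, 1.46 and 2.16 CPM in MI and 0.85, 1.53 and 1.93 in Sham. The lowest library was Sham 3 and the highest MI 2, so the groups overlapped fully, and the log2 fold change was -0.0045 (SE 0.21). Psmb10, the counterpart of Psmb7, had 17.4, 20.8 and 23.2 CPM in MI and 16.2, 21.3 and 23.8 in Sham, with a log2 fold change of 0.0088 (SE 0.10). DESeq2 gave no adjusted p for Psmb8 and Psmb9.

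The balance of immune and constitutive forms was also compared, as levels per kilobase of exon. Psmb8 stood at 1.73 ± 0.216% of Psmb5 in MI and 1.64 ± 0.353% in Sham (SD over 6 libraries). Psmb9 stood at 1.32 ± 0.406% of Psmb6 in MI and 1.35 ± 0.316% in Sham. Psmb10 stood at 81.3 ± 6.82% of Psmb7 in MI and 83.5 ± 7.23% in Sham. With the longest transcript as the length in place of all exons, Psmb8 stood at 3.06% of Psmb5 in MI and 2.90% in Sham, Psmb9 at 0.863% and 0.884% of Psmb6, and Psmb10 at 88.1% and 90.5% of Psmb7. Each difference between groups was smaller than either SD. With both lengths Psmb10 was far nearer to its partner in level than the other immune forms were. The size of the Psmb10 percent depends on the length of Psmb7, 3421 bases for all exons and 2849 for the longest transcript. The Psmb7 transcript used for the shared windows has 1160 bases. That length would give a lower percent, which was not computed. Of the windows of Psmb7 and Psmb5, 28.1% and 57.1% also occur in other genes, so the percents of Psmb10 and Psmb8 are uncertain.

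**Figure D3:**
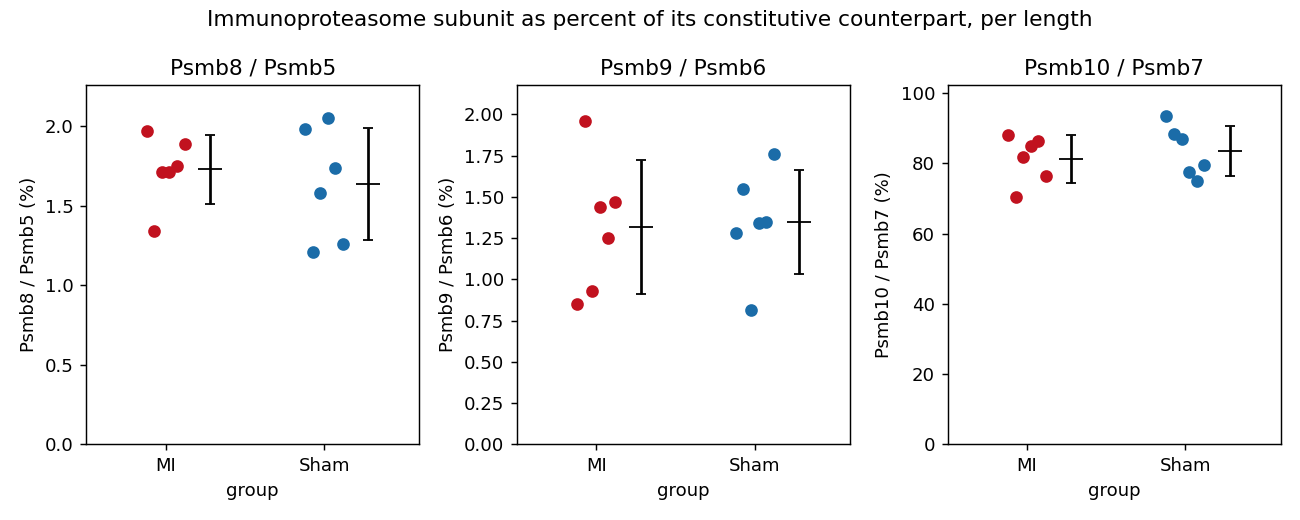
Level per length of each immunoproteasome subunit as a percent of its constitutive counterpart, 1 point per library, with the mean and SD of each group beside the points; each axis starts at 0. MI and Sham overlap in all 3 panels, at up to 2.05% for Psmb8 and 1.96% for Psmb9 and between 70.3% and 93.6% for Psmb10.

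Interferon-stimulated genes outside the proteasome and microglia markers were set beside these values. Of 11 tested interferon-stimulated genes, 6 had a positive log2 fold change, and the median was 0.0027. Microglia markers, 8 genes of the resident immune cells of the brain, summed to between 336.2 and 408.4 CPM in MI and between 317.8 and 433.6 in Sham.

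The cap ATPases unfold substrates, and Psmc5 had the largest difference among them. Psmc5 had 110.3, 114.5 and 127.4 CPM in MI and 97.3, 112.5 and 119.5 in Sham, and its log2 fold change was 0.08 (SE 0.06, edgeR adjusted p = 0.786). MI 1 and MI 3 were its highest libraries and Sham 6 its lowest, with the other 9 mixed. Psmc1 had 0.06 (SE 0.05), Psmc4 0.05 (SE 0.05) and Psmc2 0.04 (SE 0.05), and in all of them MI 3 was the highest library and Sham 6 the lowest. The cap ATPase with a negative value was Psmc6 at -0.03 (SE 0.04), which was picked out after its values were seen.

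Among the other cap genes the smallest p belonged to Psmd4, a receptor for ubiquitin chains. Psmd4 (ENSMUSG00000005625, chr3:95032694-95042614, mm10) had 79.9, 82.2 and 87.4 CPM in MI and 75.6, 78.3 and 83.5 in Sham. Sham 6, Sham 4, Sham 5 and, narrowly, Sham 1 lay below every MI library, and Sham 3 and Sham 2 lay among them. Its log2 fold change was 0.08 (SE 0.04, edgeR adjusted p = 0.69). As for Psmb5, Psmb2, Psmd9 and Psmd10, 6 of 6 MI libraries lay above the Sham median.

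Psmd9 is a chaperone that helps assemble the base of the cap and is grouped there by its symbol. Psmd9 (ENSMUSG00000029440, chr5:123169413-123250131, mm10) had 23.8, 24.6 and 27.6 CPM in MI and 21.8, 22.4 and 26.1 in Sham. MI 1 and Sham 1 were the highest libraries, 4 Sham libraries lay below all MI libraries, and the groups overlapped through Sham 1 and Sham 2. The log2 fold change was 0.10 (SE 0.06, edgeR adjusted p = 0.707). The other base chaperones with a Psmd symbol, Psmd5 and Psmd10, were named after their values were seen and had -0.01 (SE 0.04) and 0.02 (SE 0.06).

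Psmd2, a large scaffold subunit and the most abundant of these genes per length, had 147.0, 156.3 and 167.9 CPM in MI and 145.1, 158.2 and 161.8 in Sham, and its log2 fold change was 0.02 (SE 0.04). Psmd7, which pairs with the deubiquitinating subunit Psmd14, had 0.07 (SE 0.06). Psmd14 itself, chosen after its values were seen, had -0.02 (SE 0.04). Psmd13 and Psmc3, also outside the rule for named genes, share 342 bases with Sirt3 and 215 with Slc39a13 on the opposite strand. The log2 fold changes of Sirt3 and Slc39a13 were 0.03 (SE 0.04) and 0.11 (SE 0.05).

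The regulators, which bind the ends of the core in place of the cap, lay close to 0. Psme1, a subunit of the interferon-inducible activator, had 19.97, 22.6 and 25.6 CPM in MI and 18.5, 23.9 and 27.6 in Sham, with a log2 fold change of -0.03 (SE 0.09). Its partner Psme2 had 6.46, 7.11 and 7.75 CPM in MI and 5.74, 7.40 and 8.39 in Sham, and also -0.03 (SE 0.09). Sham 6 was the lowest library for both genes, the highest was also a Sham library, and the spread of Sham enclosed that of MI.

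Of the windows of Psme2, 59.3% occur in other annotated genes, Psme2b among them, so its count is uncertain. Psme3, the nuclear activator, had 0.0098 (SE 0.04), Psme4, a large activator of the nucleus, 0.03 (SE 0.04), and Psmf1, which binds the core and was named as an inhibitor, -0.04 (SE 0.05).

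The assembly chaperones held both ends of the range, with Psmg4 the most positive of all members and Psmg1 the most negative. Psmg4 (ENSMUSG00000071451, chr13:34162964-34178173, mm10), which works with Psmg3 in building the alpha ring, had 4.05, 4.28 and 5.10 CPM in MI and 3.57, 3.67 and 4.06 in Sham. The groups overlapped by their nearest libraries alone, MI 6 and Sham 2, and MI 4 stood above the rest. The log2 fold change was 0.22 (SE 0.08, unadjusted p = 0.0159, edgeR adjusted p = 0.597). As for Psmd10, with 0.02 (SE 0.06), 6 of 6 MI libraries lay above the Sham median of Psmg4.

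Its partner Psmg3 overlapped between the groups over most of its range. Psmg3 had 4.64, 5.50 and 6.92 CPM in MI and 4.58, 5.91 and 6.54 in Sham, with a log2 fold change of -0.04 (SE 0.12). The other pair of alpha-ring chaperones gave -0.07 (SE 0.08) for Psmg1 and 0.05 (SE 0.07) for Psmg2. The difference between members of a pair was not tested.

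The authors' deposited table of genes higher in MI holds 542 genes and that of lower genes 517. Psmd9 and Psmg4 stand among the higher genes of the authors' deposited table, and no other member is in either list, where 3.13% of all tested genes are in the table of higher genes and 6.09% in either. The authors' deposited table gives Psmd9 a log2 fold change of 0.12 with an adjusted p of 0.0374. For Psmg4 the authors' deposited table gives 0.12 and 0.0426. In the log2-scale values of the authors' deposited table, Psmg4 ran from 7.61 to 7.74 in MI and from 7.51 to 7.58 in Sham, so there the groups did not overlap. Psmd9 ran from 9.46 to 9.56 in MI and from 9.32 to 9.43 in Sham, also without overlap. Such values are given only for genes listed as different, so the separation is no further support. In the CPM used here both genes overlapped between the groups, and edgeR gave Psmg4 a log2 fold change of 0.22. The sources used here do not say how the authors made those values.

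Levels were compared between members as RPKM (counts scaled to exon length and library size), as the mean over the 12 libraries. They ran from 0.41 for Psmb8 to 82.2 for Psmc5. Within the alpha subunits, which are present in equal copies in the particle, the level ran from 7.26 for Psma3 to 55.0 for Psma6, a ratio of 7.58. Within the beta subunits it ran from 5.66 for Psmb3 to 47.4 for Psmb4, a ratio of 8.37. The low ends are uncertain, since 22.0% of the windows of Psma3 and 55.8% of those of Psmb3 occur in other genes, against 0 for Psma6 and Psmb4.

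Cap ATPases were the most abundant role by median. Their median was 38.3 RPKM, with Psmc2 lowest at 16.2, against 24.4 for the beta subunits, 22.4 for the other cap genes and 18.5 for the alpha subunits. The regulators had 9.11, the assembly chaperones 7.06 and the immunoproteasome subunits 0.415. The nuclear activator Psme3 stood apart among the regulators at 35.5 RPKM, and Psmg3 was lowest of the chaperones at 1.93. RPKM depends on the exon length used: with the longest transcript in place of all exons, Spearman's rho between the 2 orders over the 46 genes was 0.942, given as a description.

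**Figure D4:**
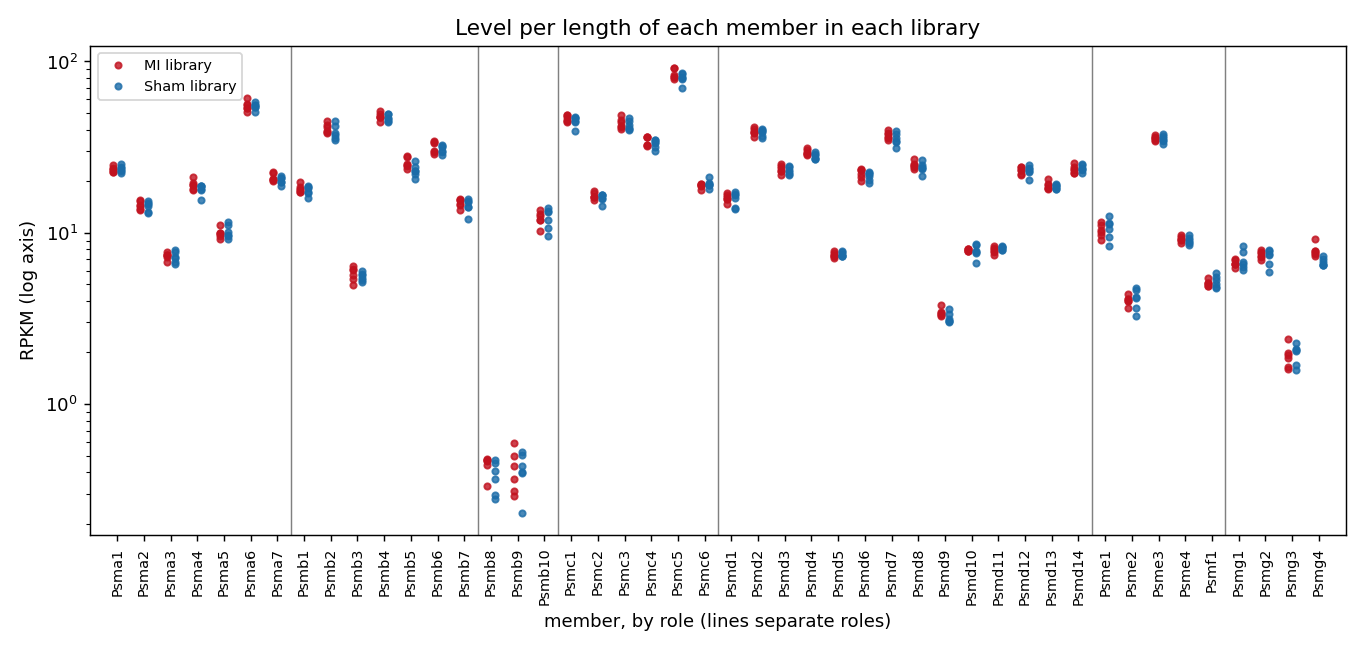
RPKM of each member in each library on a log axis, MI and Sham side by side, by role. Mean levels run from 0.41 to 82.2 RPKM while the libraries of a member lie close together; Psmb8 and Psmb9 stand far below the rest.

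The same few libraries held the extremes of many members. Sham 6 was the lowest of the 12 libraries for 29 of 46 members, against 17.4% of all tested genes, and MI 3 was the highest for 17, against 7.86%. The median deviation of the members from their own means was -0.14 (log2) in Sham 6, where 5 of 46 lay above their mean, and 0.10 in MI 3, where 42 did. In the other 10 libraries the median deviation lay between -0.05 in MI 5 and 0.06 in MI 1, and both groups held values on either side of 0.

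Sham 6 is also the library with the highest dentate marker sum, 745 CPM, and the part of this in the proteasome values was not tested. Without Sham 6 the log2 fold change was 0.21 for Psmg4 (SE 0.09), 0.13 for Psmb5 (SE 0.07) and 0.14 for Psmb8 (SE 0.16, against 0.22 with all libraries). The member median was 0.015 in place of 0.031. Some marker lists also had a median away from 0, though edgeR called 0 of their genes. The 7 oligodendrocyte and myelin markers had a median log2 fold change of 0.53, the 6 dentate markers -0.46 with 0 positive, and the 6 meningeal fibroblast markers -0.81 with 0 positive. The dentate value leans on Sham 6: the dentate sum ran from 66.8 to 304.5 CPM in MI and from 90.2 to 197.1 in the other Sham libraries. The meningeal sum ran from 18.4 to 50.0 CPM in MI and from 22.3 to 124.4 in Sham, highest in Sham 1. The part of these lists in the proteasome values was not tested.

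Other large complexes were set beside the proteasome for scale. The median log2 fold change was 0.12 for respiratory complex I (35 of 36 subunits positive) and 0.063 for the cytosolic ribosomal proteins (62 of 77 positive). In Sham 6 the median deviation was -0.18 for complex I and -0.03 for the ribosomal proteins. In MI 3 it was 0.15 and 0.07. Whether the proteasome differed from either list was not tested.

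**Figure D5:**
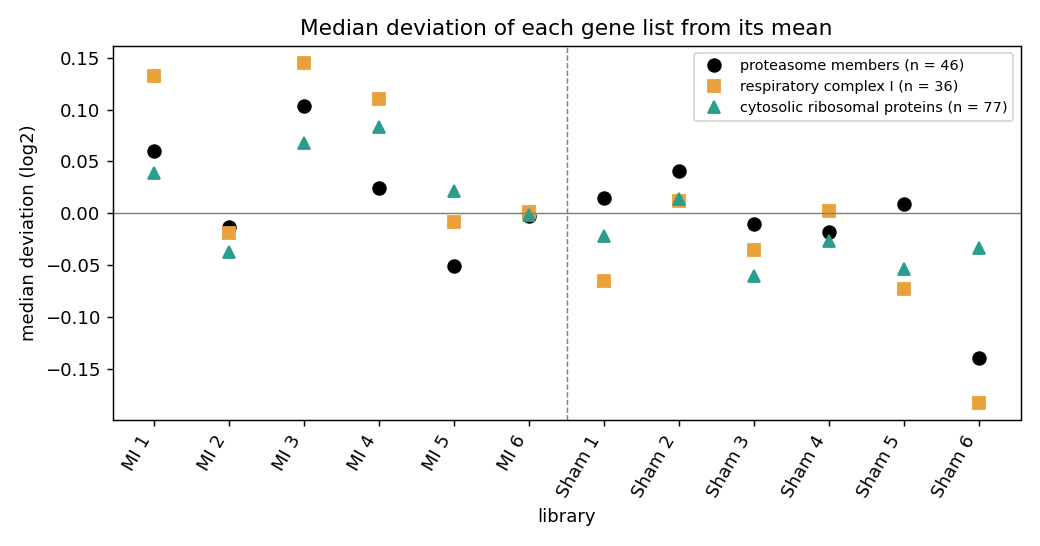
Median deviation of the 46 proteasome members, 36 complex I subunits and 77 cytosolic ribosomal proteins from their own means in each library, in log2 units. The proteasome median is lowest in Sham 6 at -0.14 and highest in MI 3 at 0.10, and in the other Sham libraries it lies within the range of MI. For complex I, Sham 1, Sham 3 and Sham 5 lie below all MI libraries besides Sham 6. For the ribosomal proteins, Sham 3 and Sham 5 lie below all MI libraries.

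The members' differences were also taken within each sex-linked set. The median was 0.052 in the Y-count libraries (31 of 46 positive) and 0.032 in the Xist libraries (27 positive), and 22 members had the same sign in both. Among the genes also tested in the main fit, 8096 of 16643 were positive in the Y-count libraries and 8075 of 16755 in the Xist libraries. Within the Y-count libraries edgeR called 0 members (1.26% of all genes), and within the Xist libraries 0 (0.0% of all genes). In a test of the difference between the sets, 0 members passed after adjustment (0.0119% of all genes did) and 2 had an unadjusted p under 0.05, beside 8.24% of all genes. These were Psmb6, with 0.14 in the Y-count and -0.04 in the Xist libraries (edgeR unadjusted p = 0.0436), and Psmd13, with 0.09 and -0.06 (edgeR unadjusted p = 0.0364). Psmd13 was named after its values were seen.

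Genes that work with the proteasome but lie outside the symbol rule showed no common direction. Of 29 such genes on a fixed list, 28 were matched and tested, 0 were called by edgeR (0.0% of all genes), and 1 had an unadjusted p under 0.05 (7.55% of all genes). The log2 fold change was positive for 13 (46.4%, against 47.6% of all genes) and negative for 15, with a median of -0.0037. Akirin2, whose protein takes proteasomes into the nucleus, had a mean of 44.0 ± 1.32 CPM over the MI libraries and 48.5 ± 3.39 over the Sham libraries (SD, n = 6 in each group). All MI libraries lay between 41.9 and 45.2 CPM, and Sham 6 at 43.5 lay among them while the other Sham libraries were higher, between 47.3 and 53.6. Its log2 fold change was -0.14 (SE 0.05, unadjusted p = 0.0117, edgeR adjusted p = 0.597).

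The partners with the next smallest p, none of them under 0.05, included a ubiquitin-binding activator and a protease. Zfand5, whose protein stimulates the proteasome, had -0.09 (SE 0.05, edgeR adjusted p = 0.735). Ddi2, which encodes the protease that releases the factor of Nfe2l1, had -0.13 (SE 0.08, edgeR adjusted p = 0.747). Without Sham 6, its highest library, Ddi2 had -0.07. Nfe2l1, added after its values were seen for its role in proteasome transcription, had 348 ± 8.80 CPM in MI and 345 ± 19.4 in Sham, with 0.01 (SE 0.05).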

How the data were processed

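RNA of dissected CA1 tissue was sequenced as 50-base single-end reads in 12 libraries, per the labels' protocols. The submitters' processing notes name STAR 2.5.2b, FastQC 0.11.5, Subread 1.5.1, featureCounts and the build mm10, with no order or settings. The sources used here give no strand setting. The count files deposited by the authors hold raw whole numbers of reads for each Ensembl gene. The authors also deposited tables of genes higher and lower in MI, with log2 fold changes, adjusted p-values and log2-scale expression values, and the sources used here do not say how these were made.

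Symbols, exons and coordinates came from GENCODE M21 (GRCm38, the same build) for 48349 of 48709 IDs. Genes kept by edgeR's filterByExpr (16829, all 46 members among them) were scaled by TMM and compared by edgeR 4.0.16 (R 4.3.3) with the quasi-likelihood F test, robust, two-sided and with no covariate, adjusting p by Benjamini-Hochberg over all of them. CPM and RPKM used TMM-scaled library sizes, and log2 CPM a prior count of 2. Intervals (95%, approximate) are 1.96 SE to either side. Levels per length used all exons of a gene. Totals of at least 20764133 counts per library gave Psmb8 a mean of 36.1 counts and Psmb9 39.6, so counting error limits these genes most.

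Members and lists were chosen with earlier results of these data known. Named were, per role, the 3 members with the smallest p and those with the highest and lowest level; all immunoproteasome, regulator and assembly members; members called by any tool, without overlap or in the authors' tables; and the 4 partners with the smallest p, of which 1 is not reported here. The labels do not give sex, so libraries were split by Y-linked against Xist counts. Alternatives were DESeq2 1.42.0, limma-voom with library weights (limma 3.58.1), other scalings and filters, the replicate number as a block, the sex-linked set, leaving out libraries, transcript length and the promoter window. The partner Paaf1 was not matched, and 7 members were not in the promoter table. The procedure was tested on simulated data, and no 2 libraries of a group were duplicates.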

Additional observations from a re-analysis of the deposited data

Results flagged for a closer look

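Some libraries stood apart from the other 5 of their group by Dixon's test at the 95% level, which chance alone gives in about 1 in 20 groups, and 12 of 116 groups did. Sham 6 was low for Psma4 at 5.21 log2 CPM, with the next Sham library at 5.40, and for Psmc1 at 6.24, with the next at 6.42. Over lists, the median deviation of Sham 6 was -0.14 for all members, -0.17 for the cap ATPases and -0.12 for the other cap genes. The member median therefore rests in part on this library, and the values without it stand beside the result.

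The scarce immunoproteasome transcripts had single low libraries, Psmb8 in MI 2 at 0.16 log2 CPM and Psmb9 in Sham 3 at -0.23. Psmg4 was high in MI 4 at 2.35 log2 CPM, with the next MI library at 2.12. Psmd9 was high in MI 1 at 4.79 and so was Psmf1 at 5.14. Psmc6 was low in MI 4 at 5.96. The assembly chaperones had their highest MI median deviation in MI 2 at 0.06.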

How the results depend on the processing

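Over 24 alternative fits, which were other tools, scalings, filters, covariates, sets and left-out libraries, 0 members were called in any, and the member median stayed positive, from 0.0090 to 0.052. Counts over all genes moved with DESeq2 (10 higher, 6 lower) and with the Y-count libraries alone (101 higher, 110 lower), where the regulator median was -0.0952; the cause was not tested. Of 34 named genes followed, 16 changed sign in some alternative and 18 did not. Of these gene values, 810 of 814 moved by less than the spread between libraries, and the 4 that moved further were Psmb3 (0.16 and -0.07) and Psmb6 (0.14 and -0.04) with the Y-count and with the Xist libraries alone. Most of these fits share all or nearly all libraries with the main fit, so small moves are in part fixed by construction.

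With the replicate number as a block, the member median was 0.0314 and 0 members were called. Same-numbered libraries did not deviate together in general (correlations 0.405, -0.350, 0.197, -0.319, -0.124 and 0.183), and 3 of 6 matched their own number best. At numbers 2 and 4, which had the most negative values, the MI and Sham libraries also differ in sex-linked set. These correlations therefore cannot decide whether the numbers pair the libraries.

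With the length of the longest transcript, median levels were 37.6 RPKM for the alpha subunits, 41.7 for the beta subunits, 0.727 for the immunoproteasome subunits, 47.1 for the cap ATPases, 37.4 for the other cap genes, 11.6 for the regulators and 8.03 for the assembly chaperones, since a shorter length raises each value. In the 200 bases before the start alone, a shorter window by construction, TGACNNNGC stood in 3 member promoters (7.7%, against 9.77% of genes, where the whole entry gave the larger share to members), the interferon element in 3 (7.7%, against 2.65%) and CCGGAA in 17 (43.6%, against 12.2%). CCAAT stood in 13 (33.3%, against 32.7% of genes), where the whole entry gave the smaller share to members. A count minimum of 50 leaves 44 members and a minimum of 1 gives 48.

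Sequence shared with other annotated genes limits 9 members, in which at least 20% of 50-base windows occur in other genes. Such genes are near-identical copies or genes that overlap the member's own exons. For Psmb7 (Nek6) and Psmg3 (Gm26938) the only such gene is an overlapping gene. Without strand, antisense partners cannot be told apart.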
